A study of Mus musculus with 17 samples.

Results

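The complement genes described here are 10 of the 27179 genes in the deposited count tables, found by symbol from a list of complement components and receptors. They are the subunits of C1q (C1qa, C1qb, C1qc), the central component C3, factor B (Cfb) and properdin (Cfp) of the alternative pathway, the anaphylatoxin receptors C3ar1 and C5ar1, and both chains of complement receptor 3 (Itgam, Itgb2). All 10 were found in the tables. RNA-seq counts came from colon macrophage preparations of mice that lack MCJ, a mitochondrial protein encoded by Dnajc15 that restrains respiration, and of wild-type mice. The mice were of strain C57BL/6(h-2b) and 8 weeks old. Each genotype was sampled in 3 conditions, named NN, NP and PP as in the library titles. For NN no treatment is named (2 MCJ-deficient and 3 wild-type libraries). NP mice received dextran sulphate sodium (DSS), which injures the colon lining, for 6 days (3 and 3 libraries), and PP mice received a broad-spectrum antibiotic for 7 days and then DSS for 6 days (3 and 3 libraries).

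Titles give each library 1 mouse number, so p values measure the spread between these libraries. The protocols name washing, digestion with collagenase IV and Trizol extraction but no sorting of the cells, and the labels do not say how the MCJ-deficient mice were made. Libraries held 29194744 to 37083344 counts. Mitochondrial genes took 23.1 to 50.4% of them. Values are CPM, counts scaled to library sizes corrected by TMM factors, and replicates carry the library numbers of the titles. Tests are edgeR quasi-likelihood tests whose p values are adjusted for the number of genes tested (Benjamini-Hochberg), a call is an adjusted p under 0.05, and fold changes are log2. Dnajc15 was lower in MCJ-deficient libraries without overlap in each condition, with a log2 fold change of -4.19 in NP (standard error, SE, 0.28; edgeR quasi-likelihood adjusted p = 9.96e-05). It was -3.76 in NN (SE 0.55) and -4.15 in PP (SE 0.76), with edgeR adjusted p of 0.326 and 0.791.

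Macrophage markers were a small part of these preparations, above all in NN. The sum of 13 markers (such as Adgre1, Csf1r and Cd68) ranged from 26.6 to 27.8 CPM in MCJ-deficient NN, with Cd163 and Trem2 at 0, and from 15.2 to 26.5 CPM in wild-type NN, with Cd163 at 0. The same sum ranged from 290 to 1044 CPM in MCJ-deficient NP against 62.3 to 101 CPM in wild-type NP, and from 1595 to 2087 CPM in MCJ-deficient PP against 347 to 3131 CPM in wild-type PP, where replicate 11 was lowest. Colonocyte markers (13, such as Epcam and Krt8) summed to 18362 to 24163 CPM in MCJ-deficient NN and 24396 to 26549 CPM in wild-type NN. They summed to 14010 to 18978 CPM in MCJ-deficient NP against 13970 to 18228 CPM in wild-type NP, and to 8378 to 11358 CPM in MCJ-deficient PP against 8931 to 13317 CPM in wild-type PP. In such bulk samples fewer cells of a type and less RNA per cell cannot be told apart.

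Complement is a protein cascade of innate immunity that tags microbes and dying cells and recruits white cells. C1q starts the classical pathway by binding antibody or debris; factor B and properdin drive the alternative pathway, and both routes converge on the cleavage of C3. The small fragments of C3 and of C5 act on their receptors on myeloid cells, while complement receptor 3, an integrin, takes up particles coated with fragments of C3. Tissue macrophages are a main source of C1q, and intestinal epithelium can make C3 and factor B.

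Upstream sequences are shown for C1qb, C1qc and Itgam, members that passed between the genotypes in NP, and for C3, which did not. Each is the 250 bases before the start given in RefSeq's promoter sequences (GRCm38.p6), in the direction of transcription, with motif matches in capitals. For C1qc that start lies inside the full RefSeq extent of the gene, so the last bases shown are within that extent, and distances are counted from the start used. The PU.1 and ETS core searched was GAGGAA, on both strands (TTCCTC on the other), and the C/EBP core was TTGCNNAA, also on both strands.
C1qb, chr4:136886201-136886450, minus strand: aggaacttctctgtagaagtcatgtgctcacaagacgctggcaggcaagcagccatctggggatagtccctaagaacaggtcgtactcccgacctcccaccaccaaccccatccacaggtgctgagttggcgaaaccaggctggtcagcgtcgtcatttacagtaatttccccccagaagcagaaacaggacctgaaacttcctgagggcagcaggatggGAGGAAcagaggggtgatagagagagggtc
C1qc, chr4:136892915-136893164, minus strand: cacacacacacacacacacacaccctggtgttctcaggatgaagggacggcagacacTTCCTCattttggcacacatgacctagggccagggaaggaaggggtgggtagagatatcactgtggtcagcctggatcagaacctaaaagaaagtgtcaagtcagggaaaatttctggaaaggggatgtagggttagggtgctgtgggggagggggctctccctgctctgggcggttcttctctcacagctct
Itgam, chr7:128062390-128062639, plus strand: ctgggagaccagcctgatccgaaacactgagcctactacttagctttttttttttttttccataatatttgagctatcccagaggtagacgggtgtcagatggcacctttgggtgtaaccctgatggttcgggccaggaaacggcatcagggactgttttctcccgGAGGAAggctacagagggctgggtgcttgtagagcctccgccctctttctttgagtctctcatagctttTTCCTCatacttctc
C3, chr17:57228137-57228386, minus strand: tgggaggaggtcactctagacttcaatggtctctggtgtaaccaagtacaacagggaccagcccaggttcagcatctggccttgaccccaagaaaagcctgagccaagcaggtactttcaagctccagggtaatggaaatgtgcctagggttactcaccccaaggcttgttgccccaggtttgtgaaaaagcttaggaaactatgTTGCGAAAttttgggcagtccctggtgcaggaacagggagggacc
GAGGAA lay 30 bases before the start in C1qb, 193 bases before it in C1qc, and 84 and 15 bases before it in Itgam. It was found in 3 of the 7 member promoters in the table, against 23.3% of all 32851 promoters. TTGCNNAA lay 45 bases before the start of C3, in 1 of the 7 member promoters, against 9.56% of all promoters. Motifs for NF-kB (1.21% of all promoters) and for the interferon-stimulated response (2.98%) were in 0 of the 7. A match is a description of these letters and was not tested as a site.

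The C1q subunits form the recognition molecule of the classical pathway and lie side by side on chromosome 4 of GRCm38 (C1qa, NCBI gene 12259, 136895916 to 136898844; C1qc, 12262, 136889801 to 136892936; C1qb, 12260, 136880126 to 136886200). C1qa had 0.973 and 0.874 CPM in MCJ-deficient NN libraries, against 1.35, 0.146 and 2.64 CPM in wild-type NN libraries. C1qa in NP reached 11.3, 88.7 and 16.8 CPM in MCJ-deficient libraries, against 6.35, 3.72 and 4.59 CPM in wild-type libraries. C1qa in PP stood at 110, 58.4 and 137 CPM in MCJ-deficient libraries, against 214, 52.4 and 304 CPM in wild-type libraries. Genotypes overlapped in NN and PP but not in NP, where MCJ-deficient replicate 20 was highest, and in PP wild-type replicate 11 lay far below the other two wild-type libraries. C1qb had 0.158 and 0.309 CPM in MCJ-deficient NN libraries, against 0.0819, 0.0973 and 0.0382 CPM in wild-type NN libraries. C1qb in NP reached 5.32, 32.5 and 8.23 CPM in MCJ-deficient libraries, against 1.68, 0.685 and 2.3 CPM in wild-type libraries. C1qb in PP stood at 45.5, 36.7 and 51 CPM in MCJ-deficient libraries, against 102, 21.6 and 137 CPM in wild-type libraries. All 3 NP libraries of MCJ-deficient mice exceeded all 3 of wild-type mice, and the NN values rest on 1 to 12 counts a library. C1qc had 0.736 and 1.08 CPM in MCJ-deficient NN libraries, against 0.0409, 0.0486 and 0.268 CPM in wild-type NN libraries. C1qc in NP reached 8.59, 70.1 and 18.2 CPM in MCJ-deficient libraries, against 4.71, 1.53 and 3.61 CPM in wild-type libraries. C1qc in PP stood at 83.5, 51.4 and 91.5 CPM in MCJ-deficient libraries, against 170, 40.9 and 222 CPM in wild-type libraries. Its NP libraries did not overlap either, and MCJ-deficient replicate 20 was again highest.

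C3 (NCBI gene 12266, chromosome 17, 57203967 to 57228136), whose cleavage coats targets and releases C3a, followed another course. C3 had 1.05 and 0.411 CPM in MCJ-deficient NN libraries, against 0.45, 0.0486 and 10.8 CPM in wild-type NN libraries. C3 in NP reached 42.4, 26.5 and 13.1 CPM in MCJ-deficient libraries, against 18.2, 15.6 and 52.4 CPM in wild-type libraries. C3 in PP stood at 159, 149 and 34.2 CPM in MCJ-deficient libraries, against 69.3, 27.2 and 65.6 CPM in wild-type libraries. Genotypes overlapped in each condition, and wild-type NN replicate 3 stood above the other NN libraries.

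Factor B, the protease of the alternative pathway (Cfb, NCBI gene 14962, chromosome 17, 34856374 to 34862514), was present in each library, including NN. Cfb had 47.7 and 43.4 CPM in MCJ-deficient NN libraries, against 30.5, 30.1 and 27.6 CPM in wild-type NN libraries. Cfb in NP reached 39.5, 52.5 and 30.5 CPM in MCJ-deficient libraries, against 37.5, 23.2 and 46.9 CPM in wild-type libraries. Cfb in PP stood at 100, 503 and 57 CPM in MCJ-deficient libraries, against 87.1, 36 and 47.5 CPM in wild-type libraries. The NN libraries of the genotypes did not overlap, and in PP MCJ-deficient replicate 23 stood far above the rest. Properdin, which stabilises the C3 convertase (Cfp, NCBI gene 18636, chromosome X, 20925454 to 20931555), was near 0 in NN. Cfp had 1.31 and 0.951 CPM in MCJ-deficient NN libraries, against 0.491, 0 and 1.15 CPM in wild-type NN libraries. Cfp in NP reached 12.1, 26 and 10.6 CPM in MCJ-deficient libraries, against 5.16, 3.03 and 7.71 CPM in wild-type libraries. Cfp in PP stood at 61.6, 135 and 59.8 CPM in MCJ-deficient libraries, against 113, 8.05 and 92.7 CPM in wild-type libraries. In NP the MCJ-deficient libraries lay above the wild-type ones, and in PP wild-type replicate 11 was the lowest of the 6.

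The anaphylatoxin receptors, G protein-coupled receptors for C3a and C5a, were barely detected in NN. For C3ar1 (NCBI gene 12267, chromosome 6, 122847140 to 122856157) the group totals there were 8 counts in MCJ-deficient and 36 counts in wild-type libraries. C3ar1 had 0.158 and 0.0514 CPM in MCJ-deficient NN libraries, against 1.31, 0.0973 and 0.0764 CPM in wild-type NN libraries. C3ar1 in NP reached 1.88, 22.9 and 7.74 CPM in MCJ-deficient libraries, against 1.35, 0.474 and 1 CPM in wild-type libraries. C3ar1 in PP stood at 39.9, 45.5 and 33.4 CPM in MCJ-deficient libraries, against 90.7, 17.4 and 111 CPM in wild-type libraries. In NP the lowest MCJ-deficient library lay just above the highest wild-type one, and in PP the MCJ-deficient libraries lay within the range of the wild-type ones. C5ar1 (NCBI gene 12273, chromosome 7, 16246743 to 16259540) also marks neutrophils and totalled 16 counts in MCJ-deficient NN against 4 counts in wild-type NN. C5ar1 had 0.289 and 0.129 CPM in MCJ-deficient NN libraries, against 0.0819, 0.0486 and 0.0382 CPM in wild-type NN libraries. C5ar1 in NP reached 12.5, 15.8 and 11.5 CPM in MCJ-deficient libraries, against 6.77, 4.06 and 9.45 CPM in wild-type libraries. C5ar1 in PP stood at 75.4, 134 and 68.2 CPM in MCJ-deficient libraries, against 95.4, 16.2 and 60.7 CPM in wild-type libraries. Its NP libraries did not overlap, though by a smaller margin than for the C1q genes, and its PP libraries did.

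Complement receptor 3 pairs the alpha chain CD11b (Itgam, NCBI gene 16409, chromosome 7, 128062640 to 128118491) with the shared beta chain CD18 (Itgb2, 16414, chromosome 10, 77530329 to 77565708), and is carried by macrophages, monocytes and neutrophils. Itgam had 1.84 and 0.926 CPM in MCJ-deficient NN libraries, against 1.64, 0 and 0.573 CPM in wild-type NN libraries. Itgam in NP reached 19.8, 31.2 and 23.2 CPM in MCJ-deficient libraries, against 3.8, 4.45 and 7.83 CPM in wild-type libraries. Itgam in PP stood at 257, 264 and 65.1 CPM in MCJ-deficient libraries, against 206, 19.3 and 89 CPM in wild-type libraries. Genotypes were separate in NP and overlapped in NN and PP. Itgb2 had 0.605 and 0.411 CPM in MCJ-deficient NN libraries, against 0.0409, 0.0486 and 0 CPM in wild-type NN libraries. Itgb2 in NP reached 10.9, 22.5 and 19.9 CPM in MCJ-deficient libraries, against 4.35, 3.08 and 5.64 CPM in wild-type libraries. Itgb2 in PP stood at 140, 184 and 48.8 CPM in MCJ-deficient libraries, against 150, 10.6 and 77.6 CPM in wild-type libraries. Itgb2 had 39 counts in MCJ-deficient NN and 2 counts in wild-type NN over the group, and its NP libraries did not overlap.

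**Figure D1:**
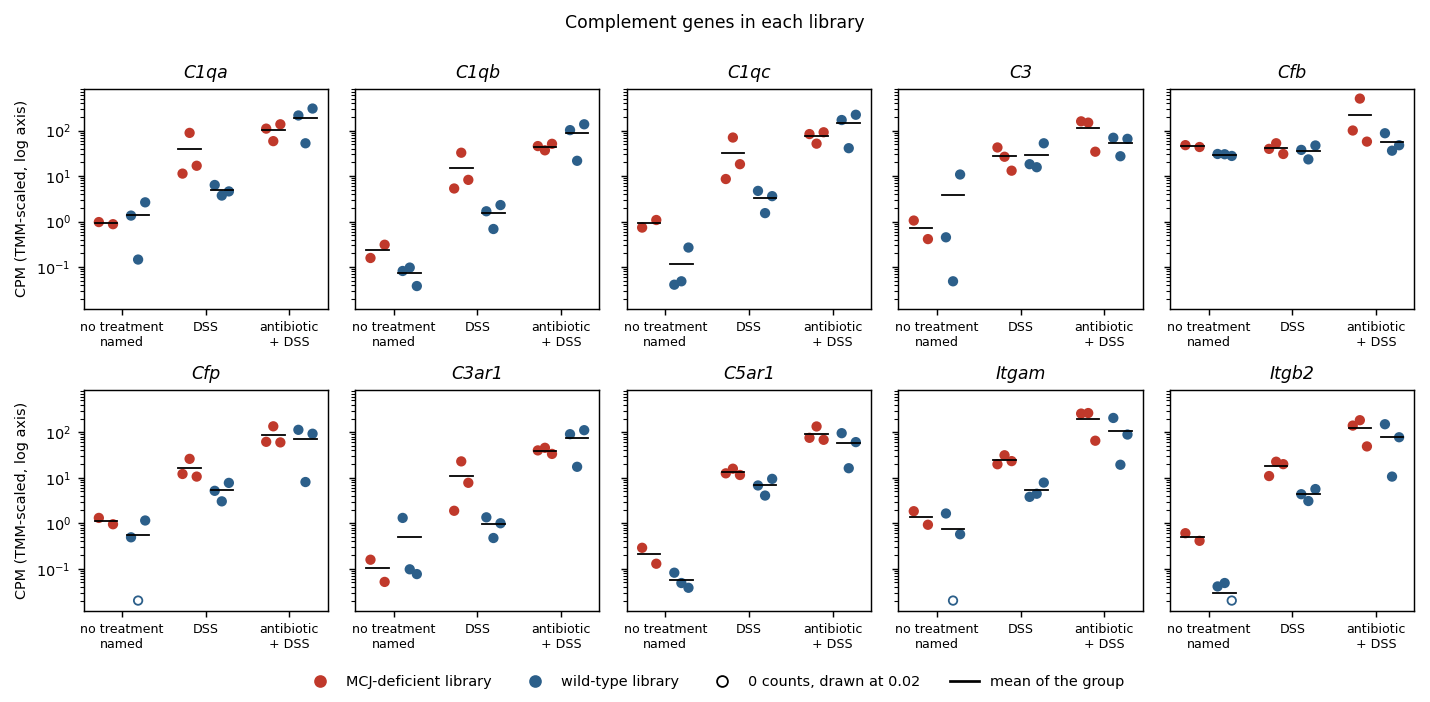
CPM on TMM-scaled library sizes (log axis) of the 10 complement genes in each of the 17 libraries, by condition, with MCJ-deficient libraries left of wild-type ones, bars for group means and open circles for 0 counts. In the DSS condition (NP) MCJ-deficient libraries lie above wild-type ones for 8 genes, and C3 and Cfb overlap.

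With DSS alone, transcripts of both complement receptor 3 chains and of 2 C1q chains were higher in MCJ-deficient mice. The integrin chain Itgam averaged 24.7 ± 5.87 CPM in MCJ-deficient NP and 5.36 ± 2.16 CPM in wild-type NP (SD, n = 3 each), and rose by a log2 fold change of 2.20 (SE 0.34; edgeR quasi-likelihood adjusted p = 0.0112). Itgb2 rose with it (2.03, SE 0.37; adjusted p = 0.0245, edgeR), as did the C1q chains C1qb (3.30, SE 0.68; adjusted p = 0.0466, edgeR) and C1qc (3.30, SE 0.69; adjusted p = 0.0487, edgeR). These 4 of 10 members compare with 0.983% of the 14452 genes tested that were called higher in MCJ-deficient mice. C1qa (3.00, SE 0.66) and C3ar1 (3.52, SE 0.77) both missed the threshold at an adjusted p of 0.0634 (edgeR). Cfp (1.62, SE 0.43; adjusted p = 0.152, edgeR) and C5ar1 (0.97, SE 0.35; adjusted p = 0.375, edgeR) did not pass. Cfb (0.19, SE 0.30) and C3 (-0.07, SE 0.48) had values near 0, with adjusted p of 0.928 and 0.99 (edgeR).

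For 8 of the 10 members the NP libraries of both genotypes stood apart with MCJ-deficient higher, against 9.8% of all genes tested. The median log2 fold change was 2.11 over the members and 0.03 over all genes tested. Macrophage markers moved with these genes: 6 of 13 rose (median 3.26), as did 4 of 7 monocyte markers (median 2.53), while 0 of 10 neutrophil markers tested passed (median 0.02) and 0 of 13 colonocyte markers did (median -0.13). The sum of the 7 monocyte markers was 676 to 1288 CPM in MCJ-deficient NP and 960 to 1722 CPM in wild-type NP. This sum did not follow the 4 markers that rose. It was already 547 to 931 CPM in MCJ-deficient NN and 1235 to 2063 CPM in wild-type NN, where Ccr2 was at 0. The 12 neutrophil markers summed to 266 to 557 CPM in MCJ-deficient NP, with Mpo at 0, and to 401 to 685 CPM in wild-type NP. Other immune lists also stood apart in NP. Dendritic cell markers (6, Itgax among them) summed to 9.07 to 18.3 CPM in MCJ-deficient NP against 1.29 to 3.14 CPM in wild-type NP, and 1 of 4 tested rose. Eosinophil markers (4, Epx at 0 in both genotypes) summed to 5.51 to 28.4 CPM in MCJ-deficient NP against 0.355 to 1.95 CPM in wild-type NP, and 1 of 3 tested rose. B and plasma cell markers (6, Ms4a1 at 0 in wild-type NP) summed to 13.7 to 210 CPM in MCJ-deficient NP against 2.64 to 6.48 CPM in wild-type NP, with 0 of 3 tested called. The part of these markers in the complement values was not tested. The 4 calls rested on single libraries. The number of members called was 6 without MCJ-deficient replicate 19, 0 without replicate 20 and 1 without replicate 21. Without replicate 20 the fold changes were 2.12 for C1qb, 2.03 for C1qc, 1.53 for C1qa, 2.00 for Itgam and 1.82 for Itgb2. The number was 0 without wild-type replicate 7, 0 without replicate 8 and 2 without replicate 9. In the fit of all 17 libraries 0 members passed, with adjusted p of 0.211 for C1qb and C1qc, 0.828 for Itgam and 0.6 for Itgb2 (edgeR), at fold changes of 3.29, 3.30, 2.20 and 2.02 for C1qb, C1qc, Itgam and Itgb2. C1qc had an adjusted p of 0.0519 with RLE size factors and 0.0503 without mitochondrial genes (edgeR). DESeq2 called 7 members, adding C1qa, Cfp and C3ar1, and called 361 genes over all, against 145 by edgeR. MCJ-deficient replicate 21 held 110 CPM of Xist, from the inactive X chromosome, and 15 CPM of the Y-linked Ddx3y, while the other NP libraries held at most 0.226 CPM of Xist.

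Where no treatment is named, no complement gene passed between the genotypes. Of the 10 members 7 had enough counts to be tested, and 0 were called by the edgeR quasi-likelihood test (Benjamini-Hochberg), against 0% of the 13559 genes tested, with 1 member at an unadjusted p under 0.05 and 0 by DESeq2. Cfb had a log2 fold change of 0.58 (SE 0.23), at 45.6 ± 3.06 CPM in MCJ-deficient NN (SD, n = 2) and 29.4 ± 1.56 CPM in wild-type NN (SD, n = 3), with an edgeR adjusted p of 0.572 and the one unadjusted p under 0.05. Itgb2 counts were 18 times as high in MCJ-deficient NN, with a 95% exact counting interval of 4.67 to 154 (adjusted p = 0.688, edgeR). C1qc (2.82, SE 1.77), Cfp (0.99, SE 2.02) and Itgam (0.86, SE 2.04) were positive, and C1qa (-0.63, SE 1.68) and C3 (-2.41, SE 2.12) negative. Without wild-type replicate 3 these negative values turned to 0.26 and 1.49. That library held 14.3 CPM of Ddx3y and 0.0382 CPM of Xist. The other NN libraries held at most 0.0486 CPM of Ddx3y and at least 53.5 CPM of Xist. Its sums of 8 fibroblast markers (186 CPM) and of 6 B and plasma cell markers (133 CPM) were the highest in NN. The part of these differences in the genotype values was not tested. The libraries did not overlap for 3 of the 7 tested (C1qc, Cfb and Itgb2), where 20.4% of all genes tested were likewise higher in both MCJ-deficient libraries. Genes with 10 or more counts numbered 13567 and 13571 in MCJ-deficient NN against 12383, 10075 and 13000 in wild-type NN, and the part of this coverage was not tested.

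After antibiotic and DSS, values of the C1q chains were negative and those of factor B positive in MCJ-deficient mice, and none passed. By the edgeR quasi-likelihood test (Benjamini-Hochberg) 0 of 10 members were called, against 0% of the 14556 genes tested, with 1 at an unadjusted p under 0.05 and 0 by DESeq2. C1qa had -0.88 (SE 0.61), C1qb -0.95 (SE 0.58), C1qc -0.91 (SE 0.57) and C3ar1 -0.88 (SE 0.58). Cfb had 1.94 (SE 0.76; edgeR adjusted p of 0.938), led by the 503 CPM of MCJ-deficient replicate 23, without which it was 0.44. C3 had 1.09 (SE 0.59), Itgam 0.92 (SE 0.79), C5ar1 0.70 (SE 0.58), Itgb2 0.66 (SE 0.81) and Cfp 0.26 (SE 0.78). Cfp turned to -0.26 without MCJ-deficient replicate 23 and also without wild-type replicate 11. Libraries overlapped for all 10 members, and 0 stood apart with MCJ-deficient higher, against 5.53% of all genes tested. The median was 0.46 over the members and 0.01 over all genes tested. Macrophage markers had a median of 0.09 and neutrophil markers of 1.88, with 0 called in each list. Monocyte markers (median 1.20) summed to 2605 to 3917 CPM in MCJ-deficient PP against 616 to 1982 CPM in wild-type PP, without overlap. Red blood cell markers (median 4.45) summed to 752 to 11577 CPM against 257 to 347 CPM, also without overlap. The lowest medians were those of fibroblast (-2.33), B and plasma cell (-2.45) and eosinophil (-3.16) markers. No marker of these lists was called, and their part in the complement values was not tested.

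**Figure D2:**
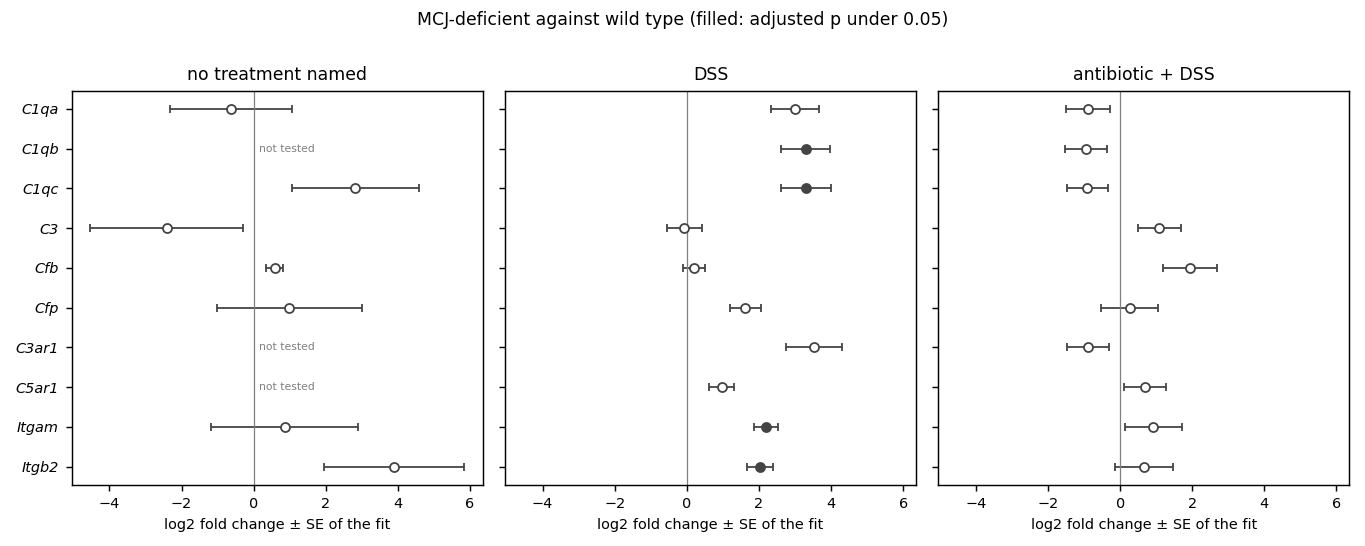
Log2 fold change of MCJ-deficient over wild-type libraries ± SE of the edgeR fit for the 10 complement genes in each condition, with filled points where the adjusted p was under 0.05. Filled points are C1qb, C1qc, Itgam and Itgb2 under DSS, and 3 genes had too few counts to be tested where no treatment is named.

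The question whether the antibiotic changed what loss of MCJ does was tested as a difference of the genotype effects between conditions. For PP minus NP, C1qb had -4.26 (SE 0.92), C1qc -4.23 (SE 0.97), C1qa -3.90 (SE 1.08) and C3ar1 -4.40 (SE 1.21), with adjusted p of 0.196, 0.266, 0.489 and 0.489 (edgeR quasi-likelihood test, Benjamini-Hochberg). None of the 10 passed (edgeR), against 0% of the 16958 genes tested, while 5 had an unadjusted p under 0.05 and DESeq2 called 2, C1qb and C1qc. Without wild-type PP replicate 11 edgeR called these 2 as well (adjusted p of 0.0285 and 0.0427). The share of all genes with an unadjusted p under 0.05 was not taken, so the 5 have no background beside them. The other values were 1.77 (SE 0.79) for Cfb, 1.15 (SE 1.36) for C3, -1.38 (SE 0.88) for Itgb2, -1.35 (SE 1.07) for Cfp, -1.30 (SE 1.07) for Itgam and -0.28 (SE 0.66) for C5ar1. For NP minus NN 0 members passed (edgeR; 0% of all genes tested, 2 members at an unadjusted p under 0.05, 1 by DESeq2), with C3ar1 at 5.74 (SE 1.58; adjusted p = 0.476, edgeR) and C1qa at 3.59 (SE 1.23; adjusted p = 0.684, edgeR). For PP minus NN 0 passed (edgeR; 0.0531% of all genes tested, 3 members at an unadjusted p under 0.05, 0 by DESeq2), with C1qc at -3.76 (SE 1.21; adjusted p = 0.403, edgeR).

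Transcripts of C5ar1, Itgb2, C1qb and C1qc were higher with DSS in both genotypes. In MCJ-deficient mice 7 of 10 members rose in NP over NN, against 2.04% of the 16958 genes tested, and 9 had NP libraries above all NN libraries, against 19% of them. C5ar1 rose by 5.96 (SE 0.74; edgeR quasi-likelihood adjusted p = 0.000492), C3ar1 by 6.65 (SE 1.35), and Itgb2 and Itgam by 5.12 (SE 0.91) and 4.16 (SE 1.04). The C1q chains rose by 6.01 (C1qb, SE 0.97), 5.39 (C1qa, SE 1.09) and 5.15 (C1qc, SE 0.95). C3 (5.22, SE 1.41), Cfp (3.84, SE 1.02) and Cfb (-0.16, SE 0.62) did not pass, with adjusted p of 0.0733, 0.0658 and 1 (edgeR). The calls depended on the 2 NN libraries: 1 member (C5ar1) was called without MCJ-deficient NN replicate 13 and 2 (C1qb and C5ar1) without replicate 14. The members that lost their call had fold changes of 4.73 (Itgam), 4.90 (C1qc), 5.42 (Itgb2), 5.47 (C1qa), 5.62 (C1qb) and 7.62 (C3ar1) without replicate 13. Fitted on the 5 libraries of the contrast alone, 9 members passed, C3 and Cfp among them, with 1029 genes called over all against 352. Itgam (adjusted p = 0.0437, edgeR) was not called when any single one of the 5 libraries was left out. Cfb turned to 0.01 without NP replicate 21.

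In wild-type mice 4 of 10 rose with DSS, against 2.25% of the genes tested, and 8 had NP libraries above all NN libraries, against 12% of them. C5ar1 rose by 6.82 (SE 0.74; edgeR quasi-likelihood adjusted p = 0.000114), C1qc by 4.68 (SE 0.93; adjusted p = 0.0111, edgeR) and C1qb by 4.39 (SE 0.95; adjusted p = 0.0178, edgeR). Itgb2 was called as well (adjusted p = 0.00194, edgeR); its 499 counts in NP against 2 counts in NN give a ratio of 157, with a 95% exact counting interval of 43.3 to 1303. Cfp (3.23, SE 0.88), C3 (2.92, SE 1.04), Itgam (2.83, SE 0.87), C1qa (1.8, SE 0.80), C3ar1 (0.91, SE 0.94) and Cfb (0.28, SE 0.56) did not pass. The count was 2 without wild-type NN replicate 1, 2 without replicate 2 and 6 without replicate 3, where C3 (6.79) and Cfp (4.36) also passed. C3ar1 was at 3.42 without NN replicate 1, which held 32 of the 36 counts of its group, and did not pass. The number of members called was 3 without NP replicate 9, where C1qb lost its call. Fitted on the 6 libraries of the contrast alone, 1 member (C5ar1) passed, with 42 genes called over all against 414.

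Sex-linked transcripts differed between the NN and the DSS libraries. Of the 12 DSS libraries 11 held at most 0.226 CPM of Xist, against 189 and 204 CPM in MCJ-deficient NN and 83.8, 53.5 and 0.0382 CPM in wild-type NN. Ddx3y was at 7.77 to 74.4 CPM in the DSS libraries, against 0 in both MCJ-deficient NN libraries and 0, 0.0486 and 14.3 CPM in the wild-type ones. In MCJ-deficient mice this difference and treatment cannot be told apart. With wild-type NN replicates 1 and 2 and MCJ-deficient NP replicate 21 left out, the libraries outside MCJ-deficient NN that held Xist, and with the lone wild-type NN library assumed to vary like the other groups, 0 members passed for DSS in wild-type mice (C5ar1 7.35, adjusted p = 0.0521, edgeR) and 8 for antibiotic and DSS.

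Other cell types moved with DSS as well. In MCJ-deficient mice 6 of 13 macrophage markers, 6 of 7 monocyte markers and 8 of 11 neutrophil markers tested rose, and in wild-type mice 4, 4 and 8 of them did. Fibroblast markers (8) summed to 86.6 to 212 CPM in MCJ-deficient NP against 5.96 to 8.73 CPM in MCJ-deficient NN, without overlap, and to 122 to 320 CPM in wild-type NP against 10.8 to 186 CPM in wild-type NN. Endothelial markers (6) summed to 22.4 to 63.5 CPM in MCJ-deficient NP against 2.87 to 5.71 CPM in MCJ-deficient NN, and to 31.2 to 37.3 CPM in wild-type NP against 6.22 to 25.3 CPM in wild-type NN. Dendritic cell markers summed to 9.07 to 18.3 CPM in MCJ-deficient NP against 0.526 to 0.72 CPM in MCJ-deficient NN (4 of 6 at 0), and to 1.29 to 3.14 CPM in wild-type NP against 0 to 0.191 CPM in wild-type NN (5 of 6 at 0). Of these lists 1 of 8, 2 of 6 and 1 of 6 markers rose in MCJ-deficient mice, and 0, 0 and 1 in wild-type mice. Neutrophil sums of 12 markers were 266 to 557 CPM in MCJ-deficient NP against 25.3 to 30.9 CPM in MCJ-deficient NN, and 401 to 685 CPM in wild-type NP against 25.6 to 65.5 CPM in wild-type NN. In NN, 5 neutrophil markers were at 0 in MCJ-deficient mice (Cxcr2, Mmp8, Ltf, Camp and Mpo) and 3 in wild-type mice (Cxcr2, Camp and Mpo). The part of these cell types in the complement values was not tested.

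Antibiotic before DSS went with higher complement transcripts than DSS alone, for 8 members in wild-type mice. The C1q chains rose by 5.80 (C1qb, SE 0.76; edgeR quasi-likelihood adjusted p = 0.00122), 5.46 (C1qc, SE 0.79) and 5.28 (C1qa, SE 0.89). C1qb averaged 86.8 ± 59 CPM in wild-type PP and 1.56 ± 0.816 CPM in wild-type NP (SD, n = 3 each). C3ar1 rose by 6.28 (SE 1.02), Itgam by 4.28 (SE 0.86), Itgb2 by 4.18 (SE 0.71), Cfp by 3.75 (SE 0.84) and C5ar1 by 3.09 (SE 0.51). These 8 of 10 compare with 3.49% of the 16958 genes tested, and their PP and NP libraries did not overlap, where 11.6% of the genes tested were likewise higher in PP. C3 (0.91, SE 0.97) and Cfb (0.67, SE 0.56) did not pass, with adjusted p of 0.748 and 0.641 (edgeR). The call of Cfp (adjusted p = 0.0164, edgeR) ended without NP replicates 7, 8 or 9 or PP replicates 10 or 12, and that of Itgam without NP replicates 7 or 8 or PP replicate 10, at log2 fold changes of 3.25 to 4.12 for Cfp and 3.33 to 4.15 for Itgam. Of 13 macrophage markers 8 rose, as did 4 of 7 monocyte markers (median 4.43) and 1 of 11 neutrophil markers tested. Of 13 colonocyte markers 3 fell. Monocyte sums overlapped, at 616 to 1982 CPM in wild-type PP and 960 to 1722 CPM in wild-type NP. Dendritic cell markers summed to 10.9 to 152 CPM in wild-type PP against 1.29 to 3.14 CPM in wild-type NP (1 of 6 rose), and eosinophil markers to 7.7 to 225 CPM against 0.355 to 1.95 CPM (2 of 3 tested rose). B and plasma cell markers summed to 36 to 1242 CPM in wild-type PP against 2.64 to 6.48 CPM in wild-type NP (1 of 6 rose), and red blood cell markers to 257 to 347 CPM against 49 to 94.8 CPM (2 of 4 tested rose). None of these 4 lists overlapped between PP and NP. Their part in the complement values was not tested.

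In MCJ-deficient mice 3 members rose in PP over NP, against 1.34% of the genes tested, and 7 had PP libraries above all NP libraries, against 12.8% of them. They were C5ar1 (2.81, SE 0.50; edgeR quasi-likelihood adjusted p = 0.015), Itgb2 (2.80, SE 0.66; adjusted p = 0.0441, edgeR) and Cfb (2.43, SE 0.58; adjusted p = 0.0462, edgeR). Cfb averaged 220 ± 246 CPM in MCJ-deficient PP and 40.8 ± 11 CPM in MCJ-deficient NP (SD, n = 3 each), an SD larger than the mean in PP. The C1q chains were at 1.22 to 1.53 and did not pass, nor did C3ar1 (1.87, SE 0.83), C3 (2.06, SE 1.00), Cfp (2.40, SE 0.79) or Itgam (2.98, SE 0.81). No member passed without any 1 of NP replicates 19, 20 and 21, and the count was 2 without PP replicate 22, 1 without replicate 23 and 4 without replicate 24, which added Itgam. Without replicate 23 the value of Cfb was 0.95. Fitted on the 6 libraries of the contrast alone, Cfb did not pass (2.39, SE 0.68; edgeR adjusted p = 0.0803) while Cfp (2.38, SE 0.44; edgeR adjusted p = 0.0162) and Itgam (2.97, SE 0.50; edgeR adjusted p = 0.0126) did. Neutrophil markers summed to 1183 to 5396 CPM in MCJ-deficient PP, highest in replicate 23, and 5 of 11 tested rose (median 2.78). Of 13 macrophage markers 0 were called, at a median of 2.22. Their sum was nonetheless 1595 to 2087 CPM in MCJ-deficient PP against 290 to 1044 CPM in MCJ-deficient NP, without overlap. Monocyte markers summed to 2605 to 3917 CPM against 676 to 1288 CPM, also without overlap, and 2 of 7 rose (median 3.07). Red blood cell markers summed to 752 to 11577 CPM in MCJ-deficient PP against 33.5 to 69.5 CPM in MCJ-deficient NP, and 4 of 4 tested rose. The part of these cell types in the calls was not tested. The antibiotic effect in MCJ-deficient minus wild-type mice is the PP minus NP difference given above, in which no member passed by edgeR.

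**Figure D3:**
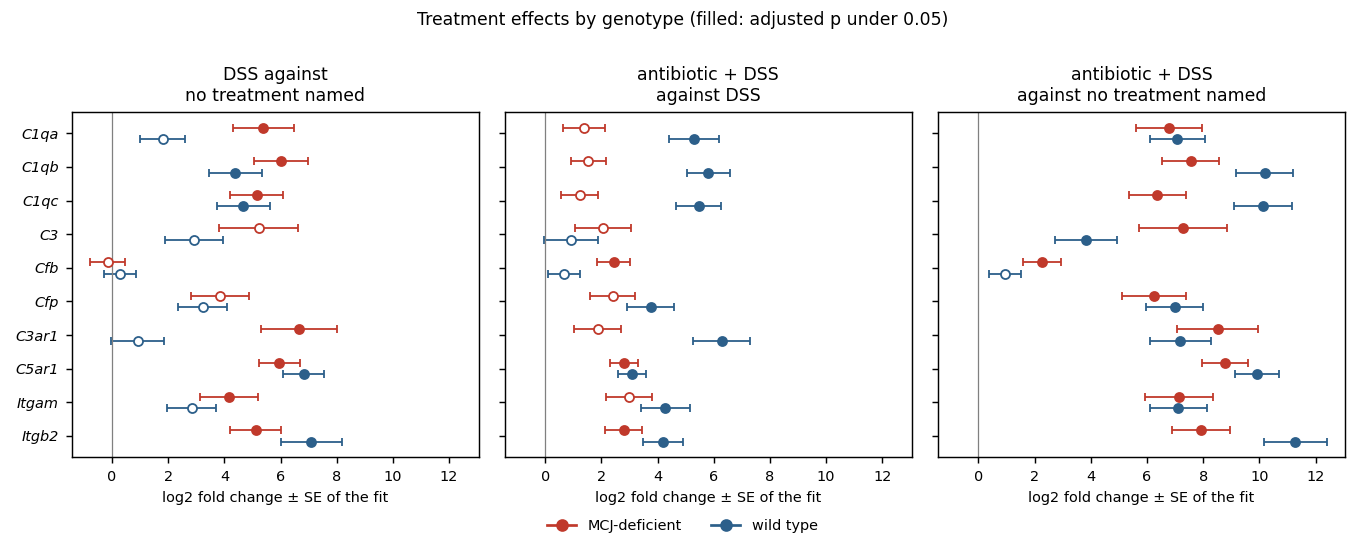
Log2 fold change ± SE of the edgeR fit of all 17 libraries for each treatment contrast, with MCJ-deficient mice above wild-type mice in each row and filled points where the adjusted p was under 0.05. Contrasts in the panels share libraries, and the fitted Itgb2 values of wild-type mice against NN rest on 2 counts in NN.

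Antibiotic with DSS, set against NN, went with higher values that passed for 10 of 10 members in MCJ-deficient mice and 9 of 10 in wild-type mice, against 6.52% and 12.8% of the genes tested. PP libraries lay above all NN libraries for all 10 members in each genotype, against 21.1% of genes in MCJ-deficient and 20.7% in wild-type mice. Macrophage markers moved with them, 11 of 13 rising in MCJ-deficient and 12 in wild-type mice, as did 9 of 11 neutrophil markers tested in each, while 7 and 8 of 13 colonocyte markers fell; their part in these values was not tested. C5ar1 rose by 8.77 in MCJ-deficient mice (SE 0.83; edgeR adjusted p = 1.02e-05) and by 9.91 in wild-type mice (SE 0.78; edgeR quasi-likelihood adjusted p = 2.27e-06). C1qb rose by 7.55 (SE 1.03) in MCJ-deficient and 10.19 (SE 1.01) in wild-type mice, C3ar1 by 8.52 (SE 1.44) and 7.18 (SE 1.09), and Itgam by 7.14 (SE 1.20) and 7.12 (SE 1.01). C3 rose by 7.28 in MCJ-deficient mice (SE 1.55; adjusted p = 0.00534, edgeR) and by 3.83 in wild-type mice (SE 1.09; adjusted p = 0.0186, edgeR). Itgb2 rose by 7.92 (SE 1.03) in MCJ-deficient mice; in wild-type mice its 7449 counts in PP against 2 in NN give a ratio of 2710, with a 95% exact counting interval of 750 to 22385. Cfb rose by 2.27 in MCJ-deficient mice (SE 0.68; adjusted p = 0.0396, edgeR) and had 0.95 in wild-type mice (SE 0.56; adjusted p = 0.235, edgeR). In MCJ-deficient mice C3 was not called without NN replicates 13 (8.10) or 14 (6.76), and Cfb not without these (2.34 and 2.21) or PP replicate 23 (0.79), nor in the fit on the libraries of the contrast alone (2.23, edgeR adjusted p = 0.142), where 9 members passed. In wild-type mice C3 was not called without NN replicate 1 (3.30) or with the libraries that held Xist left out (2.32, adjusted p = 0.161, edgeR), nor in the fit on the libraries of the contrast alone (3.79, edgeR adjusted p = 0.131), where 8 members passed. Without NN replicate 3, which held most of its NN counts, the value of C3 was 7.69. These contrasts share their NN libraries with those of DSS and their PP libraries with those of the antibiotic, and these share the NP libraries.

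Set against the macrophage marker sum, C1q overlapped between the genotypes in NP. The 3 chains together made 8.71, 18.3 and 7.37% of that sum in MCJ-deficient NP, against 12.7, 9.51 and 14.3% in wild-type NP, and 15, 7.02 and 16.8% in MCJ-deficient PP, against 15.8, 33.1 and 21.2% in wild-type PP. C5ar1 made 4.3, 1.51 and 1.96% in MCJ-deficient NP, below the 6.73, 6.51 and 12.9% of wild-type NP, without overlap. C3 made 14.6, 2.53 and 2.23% in NP libraries of MCJ-deficient mice, against 18.1, 24.9 and 71.3% in wild-type NP, also without overlap. Itgb2 made 2.16 to 3.77% in MCJ-deficient NP and 4.33 to 7.67% in wild-type NP, and Cfp 1.81 to 4.17% and 4.86 to 10.5%, which did not overlap either. Itgam overlapped, at 2.99 to 6.83% in MCJ-deficient NP and 3.78 to 10.7% in wild-type NP. C3ar1 overlapped too, at 0.651 to 2.19% in MCJ-deficient NP and 0.761 to 1.37% in wild-type NP. In PP, however, C3ar1 made 2.5, 2.18 and 2% in MCJ-deficient libraries, below the 2.95, 5.01 and 3.55% of wild-type libraries, without overlap. Cfb, which epithelium also makes, made 5.02 to 13.6% in MCJ-deficient NP, 37.2 to 63.9% in wild-type NP, 163 to 172% in MCJ-deficient NN and 104 to 201% in wild-type NN. In PP, C5ar1 made 4.73, 6.44 and 4.09% in MCJ-deficient libraries, against 3.1, 4.67 and 1.94% in wild-type libraries. Itgb2 in PP made 8.75, 8.81 and 2.93% in MCJ-deficient libraries, against 4.87, 3.05 and 2.48% in wild-type libraries. Both overlapped in PP, with 2 of 3 MCJ-deficient libraries above all wild-type ones for each gene. The same held for Itgam (3.9 to 16.1% against 2.84 to 6.69%) and Cfp (3.59 to 6.49% against 2.32 to 3.69%). These percentages are ratios of CPM, given as a description with no test, and depend on the marker sum as well as on the gene. That sum was 290 to 1044 CPM in MCJ-deficient NP and 62.3 to 101 CPM in wild-type NP, without overlap. The CPM of C3 (log2 fold change -0.07, SE 0.48) and of Cfb (0.19, SE 0.30) overlapped in NP. Their shares thus stood apart there while their CPM did not, and the part of the marker sum in this was not tested.

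**Figure D4:**
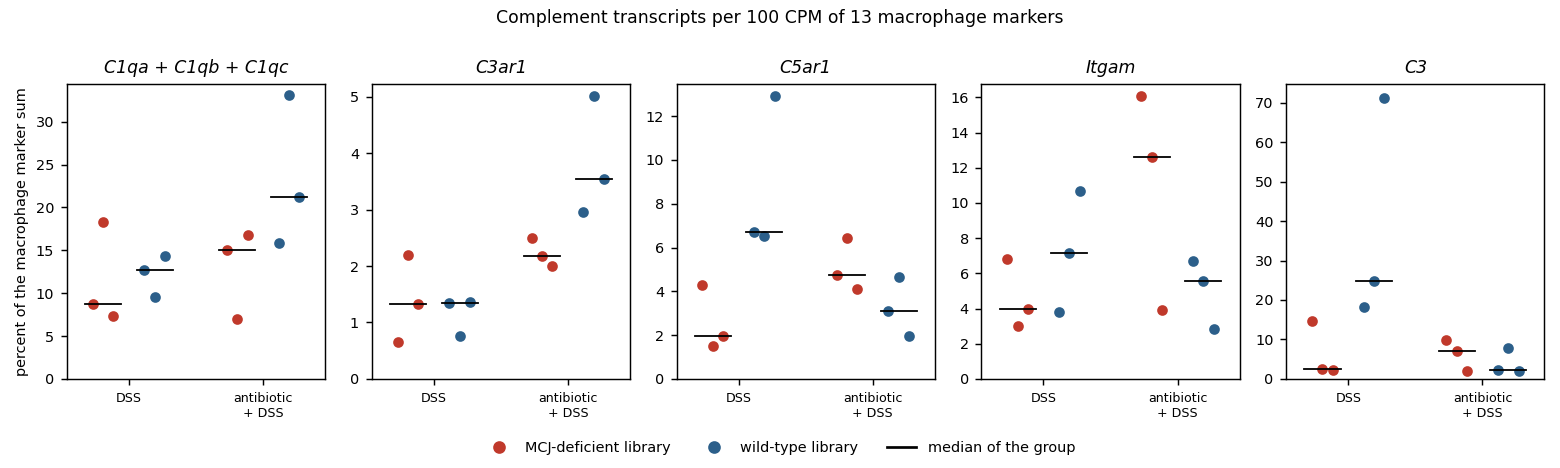
CPM of complement genes as percent of the summed CPM of 13 macrophage markers in each DSS library, MCJ-deficient left of wild type, with a bar for the group median and a separate scale in each panel. In the DSS condition the shares of C5ar1 and C3 lie lower in MCJ-deficient libraries without overlap, while C1q, C3ar1 and Itgam overlap. The marker sum itself is higher in these MCJ-deficient libraries, where the CPM of C3 overlaps with wild type and that of C5ar1 is higher. After antibiotic and DSS the share of C3ar1 lies lower in MCJ-deficient libraries without overlap, while its CPM and the marker sum overlap.

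Levels were ordered between genes per kilobase of exon. Factor B was highest in NN, at 16.1 ± 1.08 CPM per kb in MCJ-deficient mice (SD, n = 2) and 10.4 ± 0.553 in wild-type mice (SD, n = 3), and its libraries were separate from those of the next gene, C1qa, at 0.888 and 1.33 CPM per kb. In NP C1qa led in MCJ-deficient mice at 37.4 ± 41.5 CPM per kb (SD, n = 3), followed by C1qc (16.7), Cfb (14.5), C1qb (14.1), Cfp (9.36), Itgb2 (5.82), C3 (5.31), C5ar1 (5.15), Itgam (4.92) and C3ar1 (2.52). In wild-type NP Cfb led at 12.7 ± 4.23 CPM per kb (SD, n = 3), followed by C3 (5.58), C1qa (4.7), Cfp (3.05), C5ar1 (2.63), C1qc (1.7), C1qb (1.43), Itgb2 (1.43), Itgam (1.07) and C3ar1 (0.219), the last separate from Itgam. C1qa also led in PP, at 97.9 ± 38.3 CPM per kb in MCJ-deficient and 183 ± 123 in wild-type mice (SD, n = 3 each), with C3ar1 lowest in MCJ-deficient mice (9.2) and C3 lowest in wild-type mice (10.5). Neighbours in this order overlapped in 9 of 9 pairs in MCJ-deficient NP, MCJ-deficient PP and wild-type PP, and in 8 of 9 in wild-type NP. These ranges do not pair genes within a library, so overlap does not show whether a rank holds within libraries. In wild-type PP C1qa made 53 to 55.1% and C1qb 21.7 to 24.3% of the summed C1q chains per kb, though their ranges overlapped.

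Profiles over the 17 libraries, as log2 CPM centred on each gene's mean, were compared by their root mean square difference. Among members C1qb and C1qc were closest (0.37), followed by Itgam and Itgb2 (0.49) and C5ar1 and Itgb2 (0.50), while Cfb differed from the other members by 1.97 to 2.57 and C3 by 1.20 to 2.14. Among 12494 other genes, the mean C1q profile was most like Ly86 (0.45), Cd300c2 (0.51), Ms4a6b (0.55), Cxcr4 (0.57) and Cd84 (0.58). C5ar1 was most like Cd300lf (0.40), Nlrp3 (0.44), AB124611 (0.46), Cd14 (0.46) and Fpr1 (0.48), and C3ar1 most like Tlr7 (0.57), C1qb (0.59), Ly86 (0.62) and AI662270 (0.63). Cfp was most like Emilin2 (0.43), Spi1 (0.44), AB124611 (0.45), Cd14 (0.47) and Cd300lf (0.47). After its partner Itgb2, Itgam was most like Emilin2 (0.52), Vcan (0.53), Lrrc25 (0.54) and Gpr84 (0.54), and Itgb2 most like Emb (0.36), Pira2 (0.43), Slc15a3 (0.43), Gm14548 (0.44) and Vcan (0.44). C3 had no comparably close profile: its nearest were Icam1 (0.78), the Y-linked Ddx3y (0.79), Il6 (0.83), Rnd1 (0.87) and Ccl2 (0.90). Cfb, which varied least, was nearest to App (0.45), Nfil3 (0.46), Ptpn6 (0.47), Bnip3 (0.47) and Trafd1 (0.47). The root mean square of its own profile was 0.99, against 2.83 for C1q, so an equal distance is a weaker match for Cfb. The libraries share depth and tissue makeup, so these distances are descriptions.

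Of 42 other complement genes, 0 of 19 tested passed between the genotypes in NN, 1 of 26 in NP and 0 of 28 in PP (edgeR; 3, 2 and 2 at an unadjusted p under 0.05), against 0%, 0.983% and 0% of all genes tested. The one in NP was Itgax, the alpha chain of complement receptor 4, at 11 ± 2.95 CPM in MCJ-deficient NP and 1.28 ± 1.08 CPM in wild-type NP (SD, n = 3 each), a log2 fold change of 3.09 (SE 0.58; edgeR quasi-likelihood adjusted p = 0.0282). Their median log2 fold change was 0.49 in NP, against 2.11 for the 10 members and 0.03 over all genes tested. With DSS 4 of 36 rose in MCJ-deficient mice and 3 in wild-type mice, against 2.04% and 2.25% of all genes tested. Serping1, the C1 inhibitor, rose by 4.18 (SE 0.76) in MCJ-deficient mice. Cfd, the protease that cleaves factor B, had 645 counts in MCJ-deficient NP against 2 in NN, a ratio of 212 (95% exact counting interval 58.5 to 1756), and 1177 counts in wild-type NP against 3 in NN, a ratio of 248 (84.5 to 1202). Itgax rose by 4.36 (SE 0.99) in MCJ-deficient mice and was at least 31.3-fold higher in wild-type NP, against a floor of 3 counts over the NN group, which had 0.

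Antibiotic before DSS went with higher Cfd in MCJ-deficient mice (4.64, SE 1.13; 1 of 36 called, against 1.34% of all genes) and with higher Itgax (5.61, SE 0.86) in wild-type mice (2 of 36 called, against 3.49%). Against NN, antibiotic with DSS called 8 of 36 in MCJ-deficient mice (among them Itgax 6.15 and Serping1 4.37) and 9 in wild-type mice, against 6.52% and 12.8% of all genes tested. There Cfd counts were 5556 times as high in MCJ-deficient mice (95% exact counting interval 1538 to 45886) and 304 times as high in wild-type mice (104 to 1478), and Itgax was at least 1422-fold higher in wild-type mice. Each gene of this list that passed in a treatment contrast was higher with treatment, and 0 were lower. The membrane inhibitors Cd55 and Cr1l, which protect host cells, had group means of 41.9 to 62.5 CPM and 55.1 to 74.3 CPM across the 6 groups. C8a, C8b, Colec10, Masp2, Mbl1 and Mbl2, mostly liver products, were at 0 counts in each group. Counting intervals and floors cover counting error only, and near-identical copies (C4a and C4b, C1ra and C1rb, C1s1 and C1s2, Cd55 and Cd55b, Cd59a and Cd59b) may divide reads uncertainly.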

How the data were processed

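The deposited files are 3 tables, 1 for each condition, in which the authors give whole-number counts for 27179 NCBI gene numbers. CASAVA 1.8.2, FastQC, Trim Galore, STAR 2.5.4, the mm10 build and DESeq2 are named, per the submitters' processing notes; the counting program, annotation and strand setting are not given in the sources used here, so reads of overlapping genes (Mir6978 in C3, Mir6972 in Cfb) cannot be separated. Per the labels' protocols, NuGEN's Universal Plus mRNA-Seq was used for library preparation. Libraries were grouped by genotype and condition from their titles, and their depth of 29194744 to 37083344 counts sets the precision.

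Gene numbers were joined to symbols with RefSeq naming 25275 genes, GENCODE M21 another 18, and 1886 left unnamed. Low counts were removed with filterByExpr (minimum count 10), libraries scaled by TMM, and tests run with the edgeR 4.0.16 quasi-likelihood test in R 4.3.3. P values were adjusted by Benjamini-Hochberg over all genes tested, with a call at an adjusted p under 0.05. Counts at an unadjusted p under 0.05 are given without the share of all genes tested, so they cannot show an excess. MCJ effects were fitted within each condition, and treatment effects and differences in 1 fit of all 17 libraries. SE is the size of the log2 fold change divided by the square root of the F statistic. CPM use the TMM factors of the 17-library fit, CPM per kb the exon length in GENCODE M21, and profiles log2(CPM + 0.5) of genes with a mean of at least 1 CPM. The fits were tested on simulated counts. P values measure the spread between these libraries.

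All 10 members were named in each comparison, with the 5 nearest profiles of each. Of the other complement genes those called with a mean of at least 1 CPM were named, up to 4 per comparison; some genes that these rules name are not reported here. The members and lists were chosen with earlier results of these data known. Levels of genes singled out beyond this rule (Cd55, Cr1l and genes at 0 counts) were chosen after their values were seen. Alternatives were DESeq2 1.42.0, RLE factors, no filter on low counts, mitochondrial genes left out, other sets of libraries in the fit, each library left out, the libraries with Xist left out, and the mouse number as a block.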

Additional observations from a re-analysis of the deposited data

How the results depend on the processing

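The number of members called for the MCJ effect in NP was 4. It was 7 with DESeq2, 7 without a filter on low counts and 0 in the fit of all 17 libraries. For DSS in wild-type mice it was 4, and 1 with the libraries of the contrast alone. It was 0 with the libraries that held Xist left out, an alternative chosen after seeing the data. DESeq2 called 1 member for the MCJ effect in NP minus NN, and DESeq2 and the fit without a filter each called 2 for PP minus NP, where edgeR called 0 in both. Over the 12 comparisons 3 of 622 values reversed under settings other than leaving out 1 library, all 3 with the mouse-number block.

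With single libraries left out, members called ranged from 0 to 0 for the MCJ effect where no treatment is named, 0 to 6 with DSS (NP), and 0 to 0 with both (PP). They ranged from 1 to 6 for DSS in MCJ-deficient and 2 to 6 in wild-type mice, from 0 to 4 for the antibiotic in MCJ-deficient and 6 to 8 in wild-type mice, and from 8 to 10 and 8 to 9 for both treatments. They ranged from 0 to 0 for NP minus NN and PP minus NN, and from 0 to 2 for PP minus NP.

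Of 835 values with a library left out, 25 reversed direction, and none of these had passed. For the MCJ effect the lowest and highest log2 fold changes were -1.17 and 0.26 for C1qa and -3.26 and 1.49 for C3 in NN, -0.06 and 0.43 for Cfb and -0.56 and 0.69 for C3 in NP, and -0.26 and 0.73 for Cfp in PP. For DSS in MCJ-deficient mice they were -0.38 and 0.01 for Cfb. For NP minus NN they were -0.98 and 0.89 for C1qc, -1.57 and 3.12 for C3, and -0.53 and 1.14 for Cfp. For PP minus NN they were -1.27 and 0.97 for Itgam, -1.17 and 2.31 for C3ar1, -1.19 and 0.21 for C1qa, -0.42 and 4.27 for C3, and -0.16 and 1.78 for Cfb. For PP minus NP they were -0.72 and 0.30 for C5ar1. The cause was not tested.

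Counts over all genes moved too. For the MCJ effect, DESeq2, no filter and the fit of all 17 libraries gave 296, 9 and 3 in NN (against 0), 361, 353 and 1 in NP (145) and 87, 1 and 8 in PP (0). For its differences DESeq2 and no filter gave 141 and 16 in NP minus NN (0), 156 and 38 in PP minus NN (9) and 81 and 36 in PP minus NP (0). The fit of 4 groups gave 1, 1 and 0 there. For DSS, DESeq2 and the libraries of the contrast alone gave 790 and 1029 in MCJ-deficient mice (352) and 1074 and 42 in wild-type mice (414; 18 without the Xist libraries). For the antibiotic they gave 930 and 802 in MCJ-deficient mice (294; 558 without a filter), and DESeq2 gave 1381 in wild-type mice (748). For both treatments DESeq2 gave 2670 in MCJ-deficient mice (1746), and the contrast alone gave 1612 in wild-type mice (3409; 1172 without the Xist libraries).

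Mouse numbers 1 and 2 of the titles recur between the genotypes in NN and between MCJ-deficient NP and NN. Deviations from the group means correlated at -0.08 and -0.08 for same-numbered libraries in NN and at -0.02 and 0 in MCJ-deficient mice. So few pairs from such small groups cannot show whether these libraries share more than a number. With the number as a replicate block, chosen after seeing the data and leaving 1 residual degree of freedom, 0 members were called for the MCJ effect in NN, where C1qa was at 0.95 and C3 at 1.95. The block called 9 members and 1756 genes for DSS in MCJ-deficient mice, with Cfb at 0.00. Other groups compared share fewer than 2 numbers. C1qb, C3ar1 and C5ar1 had 1 to 32 counts a library in NN, which limits what can be seen there.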

Other observations

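In 2 of the 3 wild-type NN libraries C1qa made up more of the C1q transcripts than in any DSS library. Per kilobase of exon, C1qa made 48.2 to 71.5% of the summed C1q chains in the 12 DSS libraries, C1qb 12.6 to 29% and C1qc 15.8 to 28.4%. In wild-type NN replicates 1 and 3 the share of C1qa was 93.1 and 93.6%. These shares rest on 33 and 69 counts of C1qa, 2 and 1 of C1qb and 1 and 7 of C1qc. The MCJ-deficient NN libraries, with 37 and 34 counts of C1qa, had shares of 64 and 49.9%, and wild-type NN replicate 2, with 3 counts of C1qa, of 55%. This was seen after the values were known and was not tested.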
